A study of Mus musculus with 4 samples.

Results

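The effector T cell cytokines described here are 10 secreted proteins by which T cells act on other cells, Il2, Il4, Il5, Il10, Il13, Il17a, Ifng, Tnf, Csf1 and Csf2. They were found by the gene name that the array files give to each probe, which yielded 10 of 22316 named genes and 12 of 55681 probes. Each gene had 1 probe except Csf1, which had 3. The RNA came from regulatory T cells (Tregs) of male C57BL/6 mice, and the 4 groups were deltaDC spleen, WT spleen, deltaDC thymus and WT thymus. The labels do not explain deltaDC, a name used in the field for mice without dendritic cells. They give neither the alleles behind it nor the age of the mice. Each group had 1 one-colour array made from cells of 3 mice that were pooled, so no value below has a replicate and the spread between mice is unknown. Cells were sorted as DAPI-negative, CD4+ and CD25+, and Foxp3 was not part of the sort. Before it, CD4 T cells were enriched by negative selection from spleen and by removing CD8+ cells from thymus. CD25, the alpha chain of the IL-2 receptor, is also carried by other activated T cells.

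T cells make cytokines in sets. Type 1 helper cells make IFN-gamma under the factor T-bet, type 2 helper cells make IL-4, IL-5 and IL-13 under GATA3, and type 17 helper cells make IL-17A. Tregs restrain these cells, in part through IL-10, and depend on IL-2 that other T cells secrete, since Foxp3 represses the Il2 gene in them. Cytokine genes are switched on quickly after T cell receptor signals through the factors NFAT, AP-1 and NF-kB, and their mRNAs are short-lived.

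Of the 10 genes, 4 lie together on chromosome 11 in the RefSeq annotation of GRCm38.p6. Il4 (chr11:53612460-53618665) and Il13 (chr11:53631323-53634702) are followed by Rad50, whose introns hold control elements of the cluster, and by Il5 (chr11:53720794-53725103). Csf2 (chr11:54247270-54249899) lies further along the chromosome beside Il3. Tnf (chr17:35199367-35202007) lies between Lta and Ltb, and Il17a (chr1:20730905-20734496) beside Il17f. Ifng (chr10:118441046-118445894) and Il10 (chr1:131019845-131024970) stand on chromosomes 10 and 1. Il2 (chr3:37120713-37125954) and Csf1 (chr3:107741048-107760469) share chromosome 3.

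The upstream sequences of 5 of these genes are shown because their probes gave large genotype differences in spleen (Il4, Csf2, Ifng and Il17a) or one under 2-fold (Tnf). They are the 250 bases before the annotated first base, written 5′ to 3′ on the gene's strand, from RefSeq on GRCm38.p6. Capitals mark matches to the motifs named in the next paragraph.
Il4 promoter, chr11:53618666-53618915, - strand: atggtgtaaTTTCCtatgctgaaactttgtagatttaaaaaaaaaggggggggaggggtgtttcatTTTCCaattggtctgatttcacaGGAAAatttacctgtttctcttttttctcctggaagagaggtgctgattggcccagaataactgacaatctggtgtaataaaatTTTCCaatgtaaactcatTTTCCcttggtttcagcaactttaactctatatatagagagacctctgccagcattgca
Csf2 promoter, chr11:54249900-54250149, - strand: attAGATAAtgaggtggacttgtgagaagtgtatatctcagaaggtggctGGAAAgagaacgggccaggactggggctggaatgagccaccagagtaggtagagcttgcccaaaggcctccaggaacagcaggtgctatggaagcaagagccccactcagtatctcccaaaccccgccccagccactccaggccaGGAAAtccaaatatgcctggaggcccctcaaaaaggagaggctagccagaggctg
Ifng promoter, chr10:118440796-118441045, + strand: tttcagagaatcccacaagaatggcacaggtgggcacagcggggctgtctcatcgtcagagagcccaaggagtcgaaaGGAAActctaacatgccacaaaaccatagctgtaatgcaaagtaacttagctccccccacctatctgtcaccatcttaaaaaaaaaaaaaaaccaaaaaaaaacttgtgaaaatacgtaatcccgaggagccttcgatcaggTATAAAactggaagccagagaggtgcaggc
Il17a promoter, chr1:20730655-20730904, + strand: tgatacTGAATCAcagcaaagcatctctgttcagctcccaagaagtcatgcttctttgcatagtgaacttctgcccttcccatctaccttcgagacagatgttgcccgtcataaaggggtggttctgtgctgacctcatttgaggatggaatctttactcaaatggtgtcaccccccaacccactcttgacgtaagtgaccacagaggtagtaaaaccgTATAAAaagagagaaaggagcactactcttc
Tnf promoter, chr17:35202008-35202257, - strand: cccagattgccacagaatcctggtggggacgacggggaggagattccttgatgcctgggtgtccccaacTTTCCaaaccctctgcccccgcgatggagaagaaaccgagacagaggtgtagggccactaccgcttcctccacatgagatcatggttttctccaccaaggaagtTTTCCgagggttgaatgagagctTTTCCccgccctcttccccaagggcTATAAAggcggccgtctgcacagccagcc

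A promoter window of 250 bases before and 50 bases after the first base was at hand for 9 of the 10 genes, all but Il10. It was searched on both strands for short motifs. The NFAT core GGAAA was found in 8 of the 9 windows and in 61.3% of all 32851 mouse windows. Il4 held 5 matches, at bases -241, -184, -161, -77 and -59 from the start, and Il17a held none. The GATA motif AGATAA or TGATAA was found in Il4, Il13 and Csf2, and in 18.6% of all windows. In Il4 this match lies after the first base, outside the printed stretch. The NF-kB motif, GGGA and CC with any 4 bases between them, was found in Tnf, Csf1 and Csf2 (20.7% of all windows). In Tnf and Csf2 it lies after the first base, outside the printed stretch, and in Csf1 and Csf2 an NFAT match lies inside an NF-kB match. The AP-1 motif was searched in the loose form TGANTCA, with any base at N. It was found in Il17a alone of the 9, as TGAATCA (7.81%), and the T-box motif AGGTGTGA in none of them (1.28%). The TATA box TATAAA was found in Il2, Il13, Il17a, Ifng and Tnf (13.6%), where it begins 31 to 29 bases before the start. In Il13 it matches on both strands and the matches overlap. A match describes letters only and was not tested as a binding site.

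**Figure D1:**
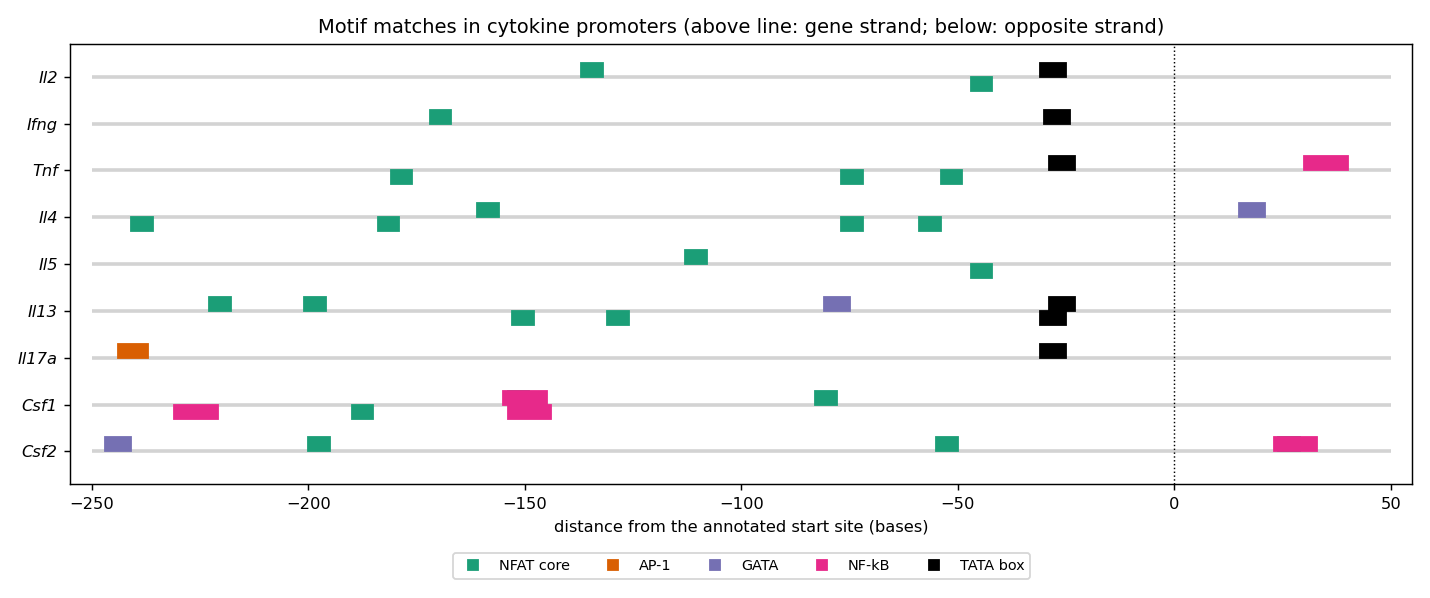
Motif matches in the promoter windows of 9 cytokine genes. The x axis gives the distance in bases from the annotated start (dotted line), boxes above a line are on the gene's strand and boxes below it on the other, and colours give the motif. Il4 shows 5 NFAT cores before the start and Il17a the only match to the loose AP-1 form TGANTCA.

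The array files print a 60-base probe for each gene, and that of Il4, the gene with the largest genotype difference here, is a stretch of its coding sequence at chr11:53426076-53426135 on mm9, the build of the files' coordinates. The Il4 probe was spotted 10 times on each array, which gives its values a low spot error.
Il4 probe: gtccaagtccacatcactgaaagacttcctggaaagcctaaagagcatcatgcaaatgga

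Probe signals are given in the scanner's fluorescence units after each array was scaled to the same 75th percentile. A gene was taken as measured when its probe was well above background, by the scanner software's own flag, on both arrays compared. Where this held on 1 array only, the difference is given as a bound, and values of at least 2-fold are counted. The ± given with a log2 difference is the spot error, the error of a probe's mean from its repeated spots or, for probes with fewer than 5 spots, from probes of like signal. It holds no variation between mice or labellings. Signals of different probes are not comparable with each other, since each probe binds with its own strength. Between 48.7% and 50.7% of spots were well above background per array. Of the 10 cytokine genes, 8 were so on deltaDC spleen, 7 on WT spleen, 6 on deltaDC thymus and 7 on WT thymus.

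The T cell and Treg labels were checked first. All 7 general T cell markers (Cd3d, Cd3e, Cd3g, Cd4, Cd5, Lck and Lat) were above background on every array, with summed signals between 319062 and 370877. All 8 Treg markers were too, with sums of 88294 on deltaDC spleen, 104893 on WT spleen, 113990 on deltaDC thymus and 109726 on WT thymus. Foxp3 itself had signals of 10893 and 11653 on deltaDC and WT spleen, and of 10549 and 8853 on deltaDC and WT thymus. Markers of other cells stood apart on the deltaDC spleen array. The natural killer (NK) cell list summed to 29074 there (8 of 8 genes above background), against 3690 on WT spleen (5 of 8), 8573 on deltaDC thymus and 7938 on WT thymus (5 of 8 each). The probe of Nkg7, a granule gene of NK and cytotoxic T cells, gave 81.2%, 70.1%, 87.8% and 92.2% of these sums in the same order. Without Nkg7 they were 5475 on deltaDC spleen, 1103 on WT spleen, 1042 on deltaDC thymus and 618 on WT thymus, so WT spleen was then not the lowest. The NK receptor genes Ncr1, Klre1 and Klrk1 were not well above background on the other 3 arrays. Innate-like lymphocyte genes (gamma-delta T cells, NKT cells and innate lymphoid cells) summed to 11576 on deltaDC spleen (10 of 10), 1941 on WT spleen (9 of 10, without Blk), 4008 on deltaDC thymus and 3433 on WT thymus (10 of 10 each). The probe of Il1rl1 gave 43%, 49%, 53.7% and 36.6% of these sums in the same order. Without Il1rl1 they were 6602 on deltaDC spleen, 991 on WT spleen, 1855 on deltaDC thymus and 2175 on WT thymus. The order of the thymus arrays was then reversed. In this list Sox13 was lower on deltaDC spleen (67.6) than on WT spleen (84.8), and Blk was highest on deltaDC thymus (83.0). Neutrophil genes summed to 9948 on deltaDC spleen (8 of 8), 137 on WT spleen (2 of 8), 2433 on deltaDC thymus and 929 on WT thymus (6 of 8 each). The probe of S100a9 gave 65%, 0%, 25.7% and 9.71% of these sums in the same order. Without S100a9 they were 3477 on deltaDC spleen, 137 on WT spleen, 1808 on deltaDC thymus and 839 on WT thymus. Among these genes Mpo was highest on deltaDC thymus (1401), then WT thymus (628) and deltaDC spleen (536). Elane lay between 112 and 115 on all arrays. Of 7 basophil and mast cell genes only Kit was above background in spleen, and the defining Mcpt8, Ms4a2, Fcer1a, Gata2 and Prss34 were above it on no array. NK cells, neutrophils and most gamma-delta T cells lack CD4, which the sort required, and their share among the sorted cells is not known from these arrays. Of 8 dendritic cell genes, 5 were above background on deltaDC spleen, 2 on WT spleen, 5 on deltaDC thymus and 6 on WT thymus, and Xcr1 and Clec9a on no array. Their sums were 54702 on deltaDC spleen, 77559 on WT spleen, 50539 on deltaDC thymus and 58622 on WT thymus, of which the probe of Siglech, a plasmacytoid dendritic cell gene, gave 82.5% to 90.2%. On deltaDC spleen Itgax was at least 5.43-fold and Zbtb46 at least 5.25-fold higher by bound, and Flt3, with 24.4, was above background there but not on WT spleen. No gene named in the labels could check the deltaDC genotype. In a mixed cell sample, more cells of a type and more RNA per cell cannot be told apart.

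**Figure D2:**
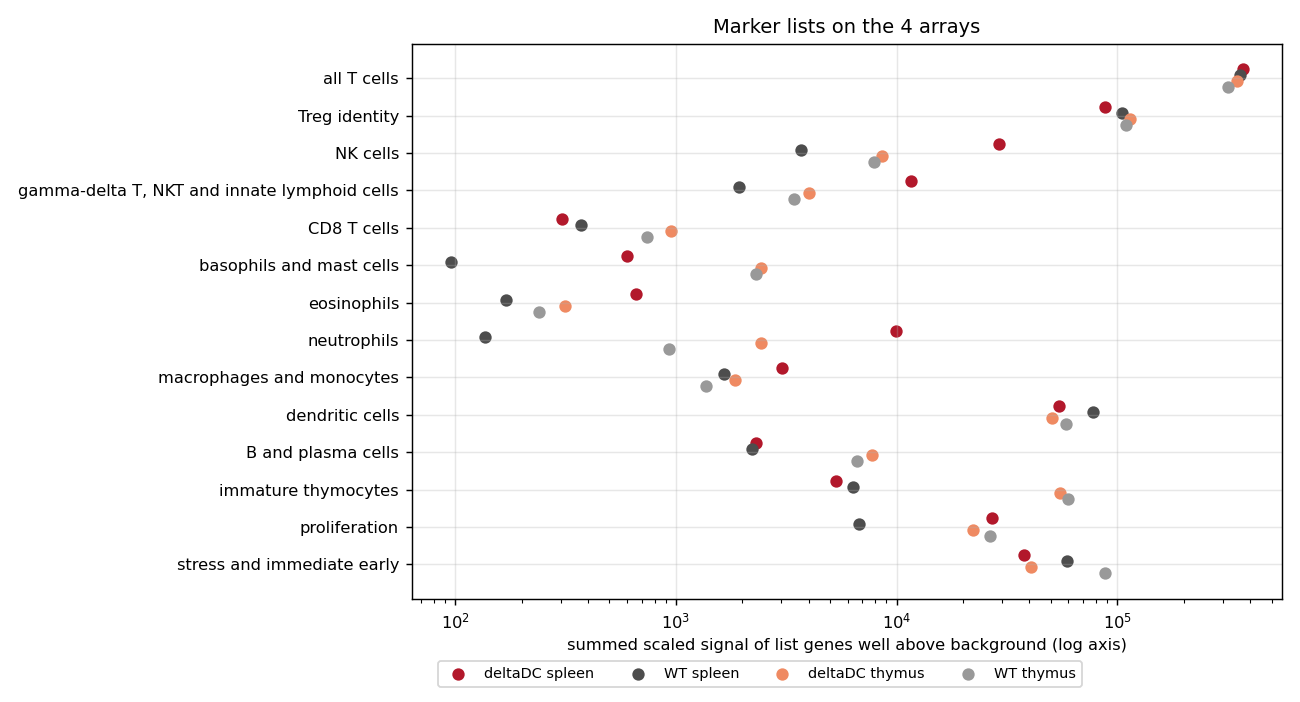
Summed scaled signal of each marker list on the 4 arrays (x axis, log scale), counting genes well above background. NK, gamma-delta and innate lymphoid, and neutrophil sums are highest on deltaDC spleen and lowest on WT spleen, though the NK sum is lowest on WT thymus without Nkg7, while sums of all T cell genes lie close together.

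The first comparison asked how the cytokine genes of splenic Tregs differ between deltaDC and WT mice. Il4, Csf2, Il10 and Ifng were higher on the deltaDC spleen array by 25.6-fold, 14.1-fold, 4.46-fold and 3.65-fold, and Il17a by a bound of at least 3.30-fold. None of the 10 was at least 2-fold lower. Il2, Tnf and Csf1 lay within 2-fold, and Il5 and Il13 were not well above background on either array. Of 7 genes measured on both arrays, 4 were at least 2-fold higher, where 6.41% of all 12531 genes measured in this comparison were, and 2.01% were at least 2-fold lower. With bounds included, 5 of 8 reached 2-fold, as did 11.8% of 13742 genes. The median log2 difference was 1.87 over the 7 cytokine genes and 0.00 over all genes measured.

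Among the type 2 cytokines, Il4, the switch factor for IgE and for type 2 helper cells, had a signal of 1688 on the deltaDC spleen array and 66.04 on the WT spleen array. Its 10 spots on deltaDC spleen ran between 1584 and 1760, and its 9 usable spots on WT spleen between 57.1 and 85.2, so the spots of the arrays did not overlap. The log2 difference was 4.68 ± 0.06, the 10th highest of 12531 genes. Il5, the eosinophil growth factor, had signals of 3.91 on deltaDC spleen and 4.89 on WT spleen. Il13, which shares a receptor chain with IL-4 and acts on epithelium, had 8.51 and 5.47 on the same arrays. Neither gene was well above background on any of the 4 arrays, so no fold is given for them and Il4 was the only type 2 cytokine of the set that was measured.

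Csf2, which encodes GM-CSF, a growth and activation factor of myeloid cells, had a signal of 415 on deltaDC spleen and 29.5 on WT spleen. Its spots ran between 390 and 441 on deltaDC spleen and between 24.3 and 40.2 on WT spleen, again without overlap. The log2 difference was 3.82 ± 0.08, rank 28 of 12531. Csf1, the growth factor of macrophages, had by its brightest probe 916 on deltaDC spleen and 874 on WT spleen, a log2 difference of 0.07 ± 0.03. Its other probes, which overlap each other on the chromosome and carry another transcript variant's accession, had 157 and 150 on deltaDC spleen against 96.6 and 55.1 on WT spleen. They gave log2 differences of 0.70 ± 0.17 and 1.45 ± 0.21, each from 1 spot per array. The probes of Csf1 thus disagree in size, and the brightest stands for the gene here.

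Il10, a cytokine by which Tregs and other cells dampen inflammation, had 180 on deltaDC spleen and 40.3 on WT spleen. The spots lay between 166 and 198 on deltaDC spleen and between 34.5 and 49.0 on WT spleen. The log2 difference was 2.16 ± 0.05, or 1.12 with another background correction (normexp). Ifng, the type 1 cytokine that activates macrophages, had 3169 on deltaDC spleen and 868 on WT spleen, from 2 spots per array, and a log2 difference of 1.87 ± 0.06. Il17a, the neutrophil-recruiting cytokine of type 17 cells, had 57.0 on deltaDC spleen and 3.92 on WT spleen. It was well above background on deltaDC spleen alone among the 4 arrays and rests on 1 spot. With normexp its spleen difference was 0.82, under 2-fold. The bound of at least 3.30-fold sets its bright signal against the lowest signal that counted as well above background on WT spleen. Of all genes above background on just 1 of the spleen arrays, 25.6% were higher by such a bound.

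Il2 and Tnf, like the brightest Csf1 probe, stayed within 2-fold in spleen, and of these only Tnf was lower on deltaDC. Il2, the T cell growth factor, had 148 on deltaDC spleen and 94.7 on WT spleen, a log2 difference of 0.64 ± 0.17 from 1 spot per array. Tnf, an inflammatory cytokine made by many cells, had 1754 on deltaDC spleen and 2188 on WT spleen, with a log2 difference of -0.32 ± 0.01. Its spots did not overlap between the arrays, but the difference is under 2-fold. Il4, Csf2, Il10, Ifng and Il17a are therefore those of the 10 that reached 2-fold in spleen. The sums of NK, gamma-delta and neutrophil genes given above moved on the same pair of arrays, as did proliferation genes (26996 on deltaDC spleen, 6739 on WT spleen), and their part in these differences was not tested.

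**Figure D3:**
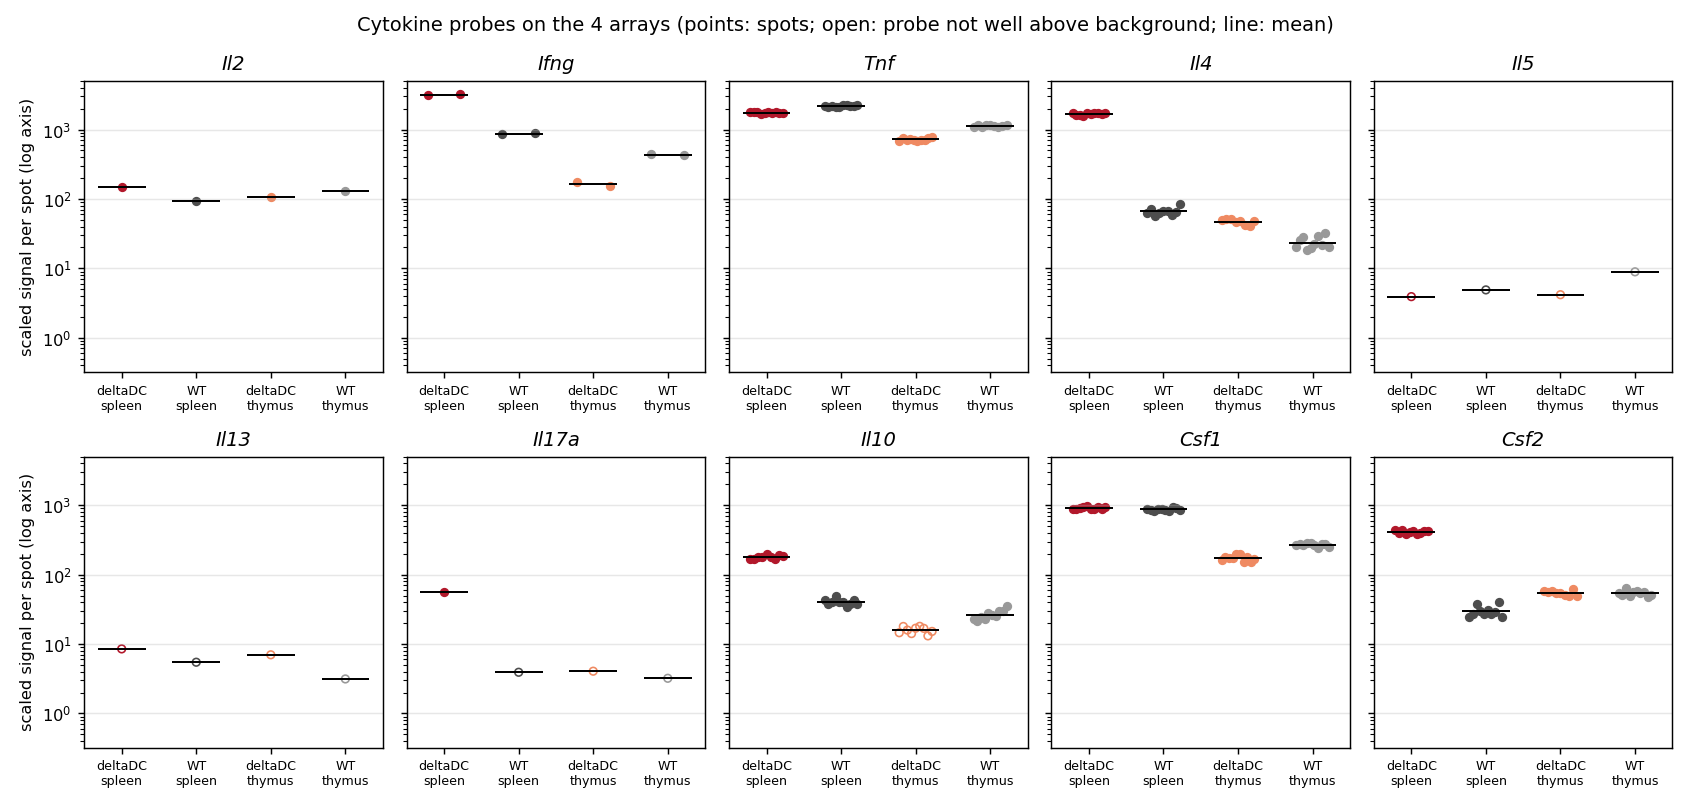
Scaled signal of every spot (points, log axis) for the 10 cytokine genes on the 4 arrays, with the mean as a line. Open points belong to probes not well above background on that array. Il4, Ifng, Il17a, Il10 and Csf2 stand clear of the other 3 arrays on deltaDC spleen, Tnf and Csf1 are higher on both spleen arrays than on both thymus arrays, and Il5 and Il13 are open throughout.

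The genotypes were next compared in Tregs of the thymus. Il4 was 2.02-fold higher and Ifng 2.67-fold lower on the deltaDC thymus array, and no other cytokine gene with a measured value or a bound reached 2-fold in either direction. Of 6 genes measured on both thymus arrays, 1 was at least 2-fold higher and 1 lower, where 0.928% and 0.675% of all 13040 genes measured were. With bounds included, 2 of 7 reached 2-fold, as did 3.34% of 13868 genes. The median was -0.47 over the 6 and 0.05 over all genes.

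Il4 had 47.3 on deltaDC thymus and 23.4 on WT thymus, far below its splenic deltaDC signal. On WT thymus 7 of its 10 spots were well above background. The log2 difference of 1.02 ± 0.10 lies at the 2-fold line. It was 0.36 with normexp and 0.95 with the percentile taken over probes detected on all arrays, both under 2-fold. Ifng had 162 on deltaDC thymus and 433 on WT thymus, and a log2 difference of -1.42 ± 0.09, the 29th lowest of 13040 genes. It was the lowest of its 4 arrays on deltaDC thymus and the highest on deltaDC spleen. Csf2 had 54.7 on deltaDC thymus and 53.9 on WT thymus, a log2 difference of 0.02 ± 0.06, and its spots overlapped fully.

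Il10 had 15.8 on deltaDC thymus, where 1 of 9 spots was well above background, and 26.5 on WT thymus, where all 10 were. The bound for it was at least 1.68-fold lower on deltaDC thymus, which is under the 2-fold threshold. Tnf had 720 on deltaDC thymus and 1125 on WT thymus, a log2 difference of -0.64 ± 0.02. Csf1 had 173 on deltaDC thymus and 269 on WT thymus by its brightest probe, a log2 difference of -0.63 ± 0.05, which was 0.06 by the median over its probes. Its other probes were close to background in thymus, with 17.7 and 24.0 on deltaDC thymus and 22.4 and 23.1 on WT thymus. Il2 had 106.8 on deltaDC thymus and 132 on WT thymus, and its log2 difference of -0.31 ± 0.17 is under 2 spot errors. Il17a, Il5 and Il13 were dim on both thymus arrays. Ifng, Tnf and the brightest Csf1 probe were thus lower on deltaDC thymus beyond their spot error, and of these only Ifng by at least 2-fold.

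The comparisons of organs asked where each cytokine gene is higher within a genotype. In WT mice, Il4 (2.82-fold), Csf1 (3.25-fold) and Ifng (2.01-fold) were lower in thymus, and Tnf lay just inside 2-fold at a log2 difference of -0.96 ± 0.02. Of 7 genes measured on both WT arrays, 3 were at least 2-fold lower and 0 higher, where 3.03% and 6.53% of 12483 genes were. No cytokine gene had a bound here, and with bounds included 12.9% of all genes reached 2-fold. The median was -0.96 over the 7 and -0.08 over all genes. Il4 differed by -1.50 ± 0.11, Csf1 by -1.70 ± 0.03 and Ifng by -1.0 ± 0.07, and with normexp Csf1 alone was past 2-fold. Ifng was also inside 2-fold at -0.98 with quantile normalization and at -0.92 with the percentile over detected probes. Csf2 and Il2 had the other sign, at 0.87 ± 0.09 (0.18 with normexp) and 0.48 ± 0.18, and Il10 differed by -0.60 ± 0.08.

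In deltaDC mice 7 of the cytokine genes were lower in thymus by at least 2-fold. On the deltaDC thymus array, Il4 was 35.7-fold lower than on the deltaDC spleen array, Ifng 19.5-fold, Csf2 7.58-fold, Csf1 5.29-fold and Tnf 2.44-fold. Il10 was at least 11.4-fold lower and Il17a at least 3.61-fold lower by bound. With normexp the differences of their signals were -1.69 for Il10 and -0.93 for Il17a, so Il17a lay inside 2-fold and 6 genes were lower. Of 6 genes measured on both arrays, 5 were at least 2-fold lower, where 6.15% of 12805 genes were, and a further 2 were lower by bound, where 16.0% of genes above background on 1 of these arrays were. With bounds included, 7 of 8 reached 2-fold, as did 16.2% of 14141 genes. The median was -2.66 over the 6 and -0.02 over all genes. Il4 had the 2nd lowest log2 difference of 12805 genes, -5.16 ± 0.05, and Ifng the 10th lowest, -4.29 ± 0.08. Il2 alone of the measured genes stayed within 2-fold, at -0.47 ± 0.17. Markers of immature thymocytes moved the other way on the same arrays. They summed to 55267 on deltaDC thymus (7 of 7 above background), against 5340 on deltaDC spleen (3 of 7), and to 59795 on WT thymus (7 of 7), against 6375 on WT spleen (4 of 7). Dntt, which adds bases to receptor gene joints, was 163-fold higher on deltaDC thymus than on deltaDC spleen. B and plasma cell genes summed to 7745 on deltaDC thymus (7 of 8), against 2311 on deltaDC spleen (6 of 8), and to 6624 on WT thymus (5 of 8), against 2223 on WT spleen (3 of 8). The part of these cells and of the enrichment, which differed between the organs, in the organ differences was not tested. These comparisons share arrays with the genotype comparisons, so their values are not independent of them.

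**Figure D4:**
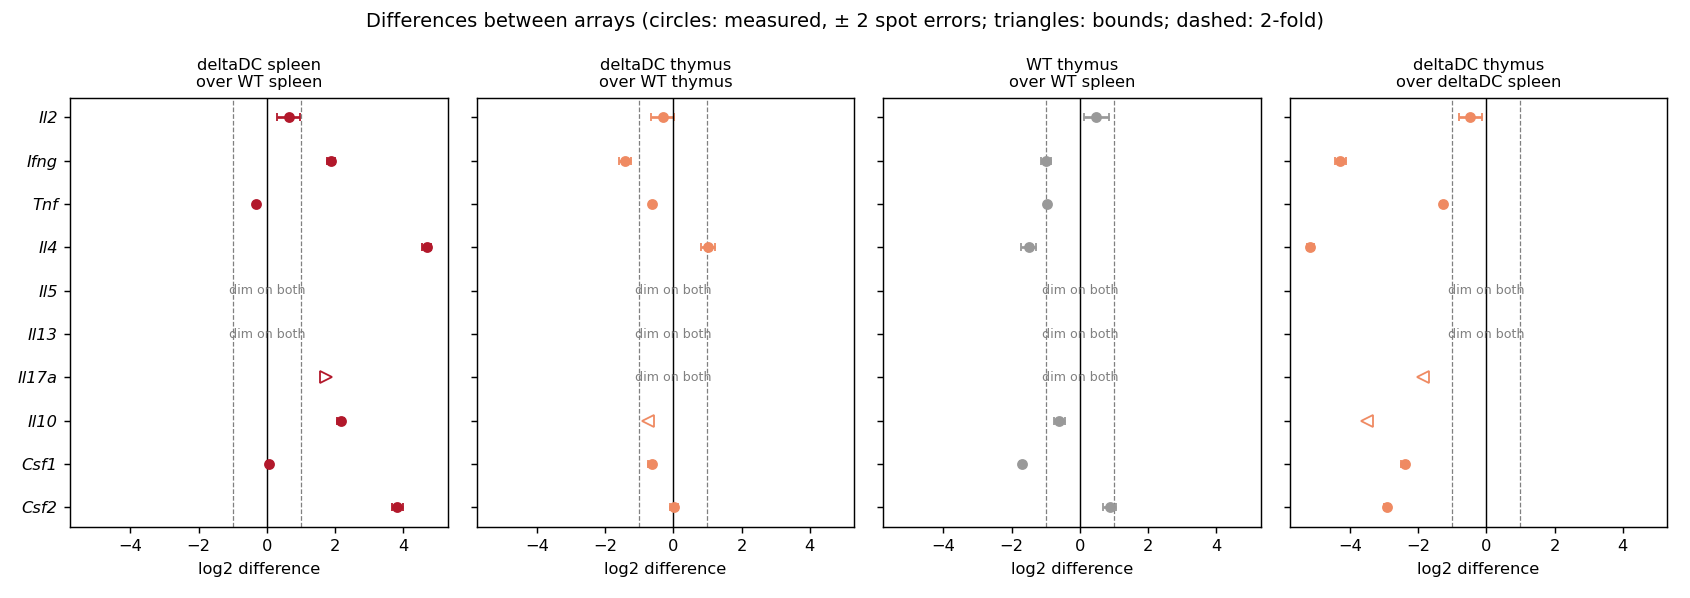
Log2 differences of the 10 cytokine genes in the 4 comparisons (x axis), with bars of ± 2 spot errors for measured genes and triangles for bounds. Dashed lines mark 2-fold. Il4 and Csf2 lie far to the right in spleen, and in thymus only Il4 and Ifng reach a dashed line.

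The order of the arrays differed from gene to gene. Il4 was highest on deltaDC spleen, then WT spleen, deltaDC thymus and WT thymus, and each neighbour in this order differed beyond 2 spot errors. Ifng had the order deltaDC spleen, WT spleen, WT thymus and deltaDC thymus, with neighbours apart by 1.87, 1.0 and 1.42 log2 units. Csf1 had the same order as Ifng, but its spleen arrays were only 0.07 apart. Tnf was highest on WT spleen, then deltaDC spleen, WT thymus and deltaDC thymus. Csf2 was highest on deltaDC spleen and lowest on WT spleen, and the thymus arrays between them did not differ beyond spot error. Il2 had no neighbours that differed beyond 2 spot errors, and its lowest and highest arrays were WT spleen and deltaDC spleen.

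The genotype difference in spleen minus that in thymus was 3.79 ± 0.10 for Csf2, 3.66 ± 0.12 for Il4 and 3.28 ± 0.11 for Ifng on the log2 scale. It was 0.95 ± 0.24 for Il2, 0.70 ± 0.05 for Csf1 and 0.32 ± 0.03 for Tnf. Il10 had 2.91, with a dim value on deltaDC thymus. With 1 array per group this difference of differences has no test.

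The test the design allowed was an additive model of genotype and organ over the 4 arrays, fitted with limma to 13493 genes and leaving 1 residual degree of freedom. That residual is the difference between the genotype differences in spleen and thymus, not a spread between replicates. A gene whose genotype difference depends on the organ, such as Il4, Csf2 or Ifng, gets a large error from it. The fit therefore cannot decide on such genes. No cytokine gene passed an adjusted p of 0.05 for genotype or for organ, among 7 tested. In limma's genotype term 0.00% of all genes passed (0 of 13493, with 589 at an unadjusted p under 0.05), and 0 of the 7 cytokine genes had such an unadjusted p. In its organ term 0.474% of all genes passed, and 2 of the 7 cytokine genes had an unadjusted p under 0.05, as did 20.2% of all genes (2727). Csf1 had an organ estimate of -2.05 ± 0.25 in limma (log2, SE; adjusted p 0.116) and was lower in thymus in both genotypes. Tnf had -1.12 ± 0.17 (limma, adjusted p 0.144), also lower in thymus in both genotypes. Il4 had a genotype estimate of 2.85 ± 1.09 in limma, with an adjusted p of 0.806, and was higher on the deltaDC array in both organs. Over the 8 alternative settings limma called 0 cytokine genes in either term.

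Other cytokine and chemokine genes of T cells were listed for comparison. Of 26 such genes, 14 were measured in spleen. On deltaDC spleen 6 of these were higher by 2-fold or more and 0 lower (6.41% and 2.01% of all genes measured). The median over the 14 was 0.48. Of 8 further genes above background on 1 spleen array, 5 were higher by bound (25.6% of all such genes). Ccl5, a chemokine of effector T and NK cells, had 37720 on deltaDC spleen and 2378 on WT spleen, a log2 difference of 3.99 ± 0.08. Xcl1, a chemokine that draws cross-presenting dendritic cells, had 1759 on deltaDC spleen and 111 on WT spleen, also 3.99. Tnfsf14 (2.37), Ccl4 (2.17), the death ligand Fasl (2.09) and the helper cytokine Il21 (1.25, or 0.60 with normexp) were the others. By bound, Areg, a tissue-repair factor, was at least 4.68-fold higher, Il24 2.63-fold, the neighbour and close relative of Il17a, Il17f, 2.22-fold, Ccl3 2.17-fold and Il22 2.11-fold. In thymus 17 of the 26 were measured and 0 reached 2-fold, Il24 was at least 2.25-fold higher by bound (20.2% of genes above background on 1 thymus array were), and the median was -0.02. Xcl1 had 1734 on deltaDC thymus and 1025 on WT thymus, so for it WT spleen was the low array.

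The receptors of the 10 cytokines were taken next. Of 19 genes, 14 were measured in spleen and 1, Il17rc, a chain of the IL-17 receptor, was higher by over 2-fold on deltaDC spleen (767, against 43.9 on WT spleen), a share close to the 6.41% of all genes. Its log2 difference was 4.13 ± 0.21. Csf2rb, the shared signalling chain of the GM-CSF and IL-5 receptors, was higher by bound (4.91-fold). The IL-2 receptor chains Il2ra, Il2rb and Il2rg differed by -0.90, 0.02 and 0.60, and Il4ra by -0.77. In thymus 0 of 17 measured receptor genes reached 2-fold. The receptor medians were 0.05 in spleen and 0.12 in thymus.

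Of 31 transcription factors of cytokine genes, 29 were measured in spleen. On the deltaDC array 7 were at least 2-fold higher and 2 lower (median 0.31), where 6.41% and 2.01% of all genes measured were. Tbx21, which encodes T-bet, had 6417 on deltaDC spleen and 722 on WT spleen, a log2 difference of 3.15 ± 0.09. Gata3, the type 2 factor, had 6601 on deltaDC spleen and 5912 on WT spleen, a difference of 0.16 ± 0.07. In thymus Tbx21 had 385 on deltaDC and 452 on WT, within 2-fold, where Ifng was 2.67-fold lower on deltaDC. In spleen the type 1 factor was higher on the array where Ifng was, while Gata3 was within 2-fold where Il4 was 25.6-fold higher. A link between these factors and the cytokine values was not tested. Bhlhe40, a factor needed for GM-CSF in T cells, differed by 2.04, Rora by 1.98 (0.83 by the median over its probes) and Prdm1 by 1.82, and Runx3 (1.34) and Batf (1.14) were also higher. Fos and Jun, the AP-1 subunits, were lower, with log2 differences of -1.76 and -1.22 in spleen and of -1.90 and -1.16 in thymus, and Junb was at -1.0 in thymus (-0.97 with normexp). These 3 are also in the list of stress genes, which summed to 37933 on deltaDC spleen and 59215 on WT spleen, and to 40851 on deltaDC thymus and 88004 on WT thymus. In thymus 0 of 29 factors were higher and 3 lower, where 0.928% and 0.675% of all genes measured were, with a median of 0.01.

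Factors that act on the decay or translation of cytokine mRNA were inside 2-fold in spleen. Of 13 such genes, all were measured in spleen and 0 reached 2-fold (median -0.18), and in thymus 0 of 11 did (median -0.08). Zfp36, which encodes the mRNA decay factor tristetraprolin, was at least 2.02-fold lower on deltaDC thymus by bound, as were 10.5% of genes above background on 1 thymus array.

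Genes next to the cytokine genes on the chromosome were also listed. Of 24 neighbours, 22 were on the array and 12 measured in spleen, where 1, Il21, was higher (6.41% of all genes) and 1, the carnitine transporter Slc22a5, lower (2.01%) at -1.10, or -0.95 with normexp. Of 5 neighbours above background on 1 spleen array, Il17f, Il22 and Il24 were higher by bound (25.6% of such genes). These 3 and Il21 are the cytokine genes already counted above. Rad50, which lies between Il13 and Il5, differed by 0.02 ± 0.08 in spleen, Kif3a, on the other side of Il4, by 0.64, and Irf1 by -0.12. Beside Tnf, Lta differed by -0.90 and Ltb by -0.18. In thymus 14 neighbours were measured, of which 1, the collagen hydroxylase gene P4ha2 at 1.09 ± 0.40 (0.89 with the authors' matrix and 0.36 with normexp), was higher and 0 lower (0.928% and 0.675% of all genes). The medians were 0.05 in spleen and 0.04 in thymus.

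Genes known to respond to these cytokines came last. Of 16, 12 were measured in spleen and 1, Cxcl10, a chemokine induced by IFN-gamma, was higher (1236 on deltaDC spleen, against 383 on WT spleen). Its log2 difference was 1.69 ± 0.10, and 0.92 by the median over its probes. A count of 1 in 12 is close to the 6.41% of all genes. Socs1, Cish and Bcl6 differed by -0.63, -0.25 and -0.04. In thymus 1 of 13, the chemokine Ccl17, was lower, with 22.1 on deltaDC thymus and 84.1 on WT thymus (0.675% of all genes were). Its log2 difference was -1.93, or -0.83 with normexp. The medians were 0.07 in spleen and 0.05 in thymus.

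**Figure D5:**
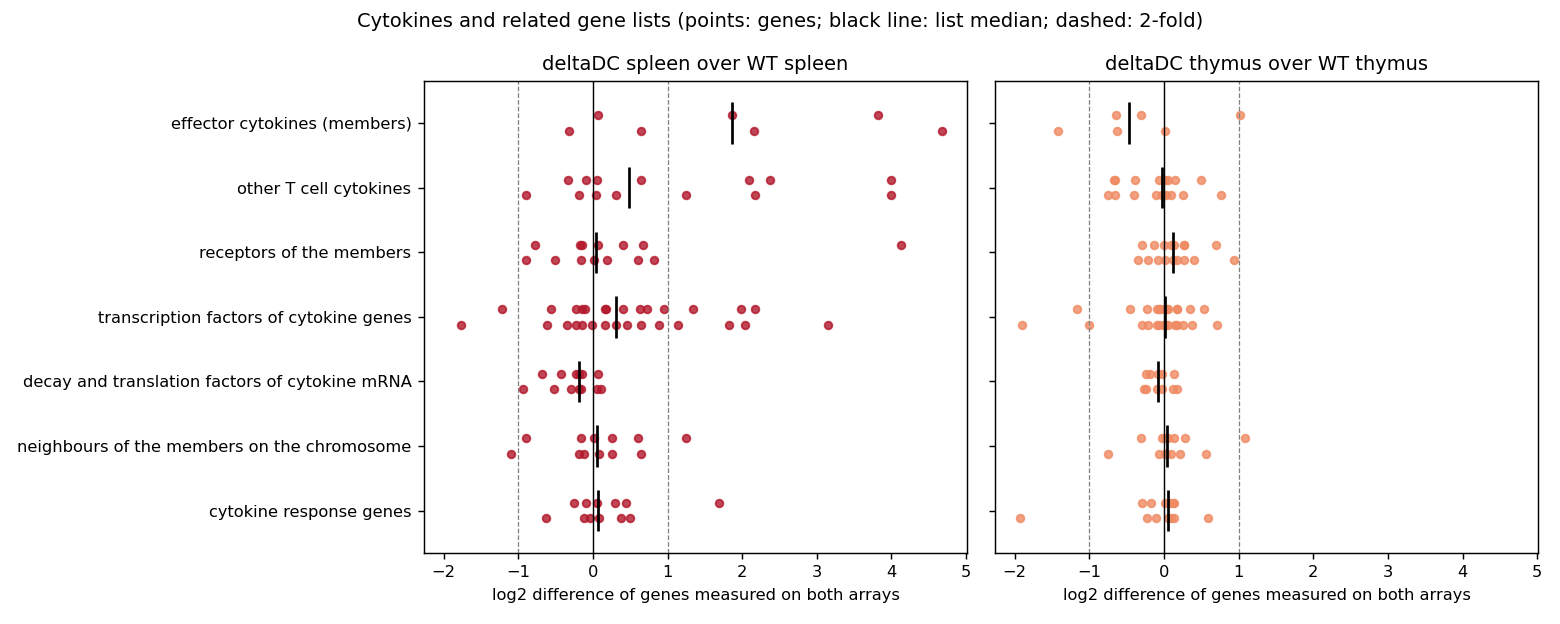
Log2 differences (x axis) of the cytokine genes and 6 related lists in spleen and thymus, for genes measured on both arrays. Points are genes, black lines list medians and dashed lines 2-fold. In spleen the medians of the 7 measured effector cytokines (1.87) and of other T cell cytokines (0.48) stand furthest right, and in thymus most points lie inside the dashed lines.

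The genes whose pattern over the 4 arrays came closest to each cytokine gene were found among 12287 genes above background on all arrays, by the root mean square difference of centred log2 signals over 4 arrays. Csf2 was followed most closely by Id2, a factor of effector and innate lymphocytes, at 0.16, and by Ccl5 at 0.17. Il4 had Klrb1c at 0.32, Klrb1a at 0.43 and Adam8 at 0.54, and the first of these encodes the NK receptor NK1.1. Klrb1c had 2549 on deltaDC spleen, 85.2 on WT spleen, 102 on deltaDC thymus and 49.5 on WT thymus. Ifng had Podnl1 at 0.27, the type 1 chemokine receptor Cxcr3 at 0.42 and Ildr1 at 0.47. Tnf had Cxcr5, a receptor of follicular T cells, at 0.07, Wscd2 at 0.08 and Synpo at 0.08. Csf1 had A330023F24Rik at 0.07, Enpp1 at 0.11 and Camk2b at 0.12, and Il2 had Fam72a at 0.03, Upk1a at 0.04 and Pag1 at 0.04. With 4 arrays such closeness is a description and has no test.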

How the data were processed

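RNA of 4 sorted Treg pools (10 ng, RIN 8.4 to 9.9) was labelled with Cy3 and hybridised to 4 arrays on 1 slide with 1 scan time, per the labels and the file headers. Spot intensity in the deposited scanner files was background-subtracted by Agilent Feature Extraction 10.7.3.1, and spot flags are coded as other numbers, per the file headers. The authors also deposited a matrix of log2 values, quantile-normalized per its header (medians 4.10 to 4.15, not centred on 0). Each column correlated best, at r = 0.996, with the array of its own label, so direction and array are settled and any rescaling is unknown. It served as an alternative.

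From the intensities, control spots and 110 to 168 outlier spots per array were removed (0 were saturated). Arrays were scaled by their 75th percentile of processed signal (340.2 to 417.5), set to log2, and repeated spots averaged. A probe was detected when at least 50% of its spots were well above background, and the brightest probe stood for a gene. RefSeq accessions named 27592 probes, symbols 3498, and 24591 stayed unnamed. A bound uses the higher of the dim signal and the array's lowest well-above-background signal, and for Il10 and Il17a the latter was the higher. Genotype and organ were fitted with limma 3.58.1 (R 4.3.3) on genes above background on at least 2 arrays, two-sided, with Benjamini-Hochberg adjustment, and the fit was tested on simulated data. The number of arrays limits the precision.

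The cytokine genes, the gene lists, the motifs and the thresholds were chosen with earlier results of these data known. The named genes were all 10 cytokines, up to 6 genes per list at 2-fold or more by measurement, genes with a known tie to a cytokine, and the 3 nearest in pattern. Genes named by a bound only, and the further factors Runx3 and Batf, were added after their values were seen. A few results of the lists and of the pattern search are not reported here.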

Additional observations from a re-analysis of the deposited data

Results flagged for a closer look

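Several cytokine genes differed between genotypes in opposite directions in the organs, with 1 array per group, so each is a sign change over 4 arrays and the difference was not tested. Ifng was higher on deltaDC than on WT in spleen and lower in thymus, and its genotype difference in spleen minus that in thymus was 3.28 log2 units. Il10 had 2.91 in the same way, with a dim value on deltaDC thymus. Il2 had 0.95, with a thymus difference under 2 spot errors, and Csf1 0.70, with a spleen difference of 0.07 and a thymus difference that had the other sign (0.06) by the median over its probes. Between organs, Il2 was lower in thymus in deltaDC mice (-0.47) and higher in WT mice (0.48). Csf2 was likewise lower in thymus in deltaDC mice (-2.92) and higher in WT mice (0.87, or 0.18 with normexp), and this difference was not tested either.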

How the results depend on the processing

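Each count and each difference was recomputed under 8 alternatives: normexp, the authors' matrix, quantile normalization, the percentile over probes detected on all arrays, no filter on dim probes, genes above background on all 4 arrays only, the median over a gene's probes, and, chosen after seeing the data, a call only where every spot was well above background. All 17 cytokine differences of at least 2-fold kept their direction under each alternative that gave a value, and 43 of 48 recomputed counts were within 1.5 times of the count reported. The exceptions were these. In spleen, 5 cytokine genes differed between genotypes, and 3 did with genes above background on all 4 arrays only, a filter that drops Il10 and Il17a. In thymus, 2 did, and 1 did with normexp, 1 with the percentile over detected probes and 4 without the filter on dim probes, which adds the dim Il5 and Il13. Between WT organs, 3 did, and 1 did with normexp. In spleen, normexp gave 3.69 for Il4, 2.22 for Csf2, 1.12 for Il10 and 0.82 for Il17a (-0.93 between deltaDC organs), and the median over probes gave 0.70 for Csf1 (0.06 in thymus). The organ term of limma called 64 genes in all, 196 with normexp, 64 where every spot had to be above background, and 0 under the other 6 alternatives, the authors' matrix among them, with 0 cytokine genes each time. Il2, Il5, Il13 and Il17a rest on 1 spot per array, and signals near background limit Il5, Il13, Il17a and thymic Il10 and Il4. No paired analysis was possible because each group has 1 array. Whether both organs were taken from the same 3 animals is not stated outright in the labels, and the organ term already compares organs within genotype.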

Other observations

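Further marker genes of other cells were set beside the cytokine genes. Cpa3, a mast cell protease, was dim on both spleen arrays and had 560 on deltaDC thymus and 722 on WT thymus, the arrays where Il4 was lowest. Kit, of the same marker list, had 600 on deltaDC spleen and 96.3 on WT spleen, the direction that Il4 had in spleen. Its signals were 1866 on deltaDC thymus and 1587 on WT thymus. S100a9, a neutrophil granule gene, had 6471 on deltaDC spleen and was dim on WT spleen, and had 625 on deltaDC thymus and 90.3 on WT thymus. Mpo, of the neutrophil list, had 536 on deltaDC spleen, 1401 on deltaDC thymus and 628 on WT thymus, and was dim on WT spleen. Zbtb16, the factor of natural killer T cells, had 1034 on deltaDC spleen, 79.8 on WT spleen, 60.4 on deltaDC thymus and 44.0 on WT thymus, which is the order of Il4. Cd163l1, a gamma-delta T cell gene, had 1471 on deltaDC spleen, 35.3 on WT spleen, 915 on deltaDC thymus and 1314 on WT thymus, so WT spleen was its low array, as it was for Csf2. The sort was for CD4+ CD25+ cells. How many NK cells, natural killer T cells, neutrophils, mast cells and gamma-delta T cells were among them is not known from these arrays. The part of these cells in the cytokine values was not tested.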
